A study of Mus musculus with 24 samples.

Results

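The segment of mouse chromosome 13 from 60 to 72 Mb (build mm10) holds a large family of zinc finger genes and, in the line that carries an inducible Firre transgene on a wild type background, a block of intervals with low chromatin accessibility near 66.3 Mb. Its members were all intervals whose start lies between those bounds, 704 of the 145143 intervals in the deposited table. The segment was chosen because it holds that block, so the difference between the 2 wild type lines is described here and not tested.

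The assay was ATAC-seq, a method whose transposase cuts DNA that is open, and the cells were mouse embryonic stem cells (mESC) treated to induce Firre, a long noncoding RNA. The KO Firre line has the genotype Firre KO with an inducible Firre transgene, and the KO control line is Firre KO without it. The WT Firre line carries the inducible transgene in cells whose own Firre gene is intact, and the WT control line is wild type. All 4 lines were grown on gelatin with serum, LIF and the MEK and GSK3 inhibitors PD0325901 (1 µM) and CHIR99021 (3 µM), and all received doxycycline at 1 ng/µL. Each line gave 1 library of 25000 cells at 0, 30, 60, 90, 120 and 150 min, and the 60 min library of the WT Firre line was not analysed here, which left 23. Libraries of a line at different times served as its replicates (n = 6, 6, 5 and 6 in the order above). The promoter that drives the transgene is not given in the sources used here. Nothing states that a line is more than 1 clone, so genotype and clone cannot be told apart, and a p-value here speaks of the spread among libraries within single lines.

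Total counts per library ran from 5725518 to 14977148, of which 25965 to 68583 fell in the segment. Levels are in CPM, counts scaled to a fixed library size on TMM-scaled library sizes, so levels of intervals of different width are not compared as such. The 20 intervals at the Firre gene on the X chromosome summed to 23.1 ± 4.04 CPM in the KO Firre line and 10.2 ± 2.84 CPM in the KO control line, and to 127 ± 9.75 CPM in the WT Firre line and 91.4 ± 7.13 CPM in the WT control line (SD), which is the order the labels give. Promoters of all 9 embryonic stem cell markers (Pou5f1, Sox2 and Nanog among them) held an interval, but so did 5 of 7 fibroblast and 6 of 7 differentiated lineage markers, with Col3a1, Lum and Cdx2 holding none. The fibroblast marker promoters summed to between 51.2 and 61.5 CPM in every library. The embryonic stem cell marker promoters summed to 404 ± 25 CPM in the KO Firre line, 397 ± 31.7 CPM in the KO control line, 377 ± 36.7 CPM in the WT Firre line and 342 ± 11.1 CPM in the WT control line. Every library of either KO line was above every WT control library. The differentiated lineage marker promoters summed to 118 ± 6.32, 124 ± 5.84, 118 ± 0.946 and 117 ± 1.99 CPM in the same order of lines, with overlap between all of them. The part of the marker levels in the line comparisons was not tested. The KO control libraries of 30 and 90 min had the largest shares of counts in promoters of that line, 43.1% each. The other KO control libraries had 41.0% to 42.7%, and the WT Firre library of 150 min had 44.3%. Calls lost without the KO control libraries of 30 and 90 min are named.

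KRAB zinc finger proteins bind DNA through arrays of zinc fingers and recruit the co-repressor KAP1 (Trim28), which in embryonic stem cells silences many transposable elements. Their genes lie in tandem clusters that grew by local duplication, and chromosome 13 of the mouse carries such clusters. Vomeronasal receptor genes of the Vmn2r family, many of them pseudogenes, are spread through the same stretch of the chromosome by the RefSeq annotation (GRCm38.p6, the same assembly).

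RefSeq lists 309 genes in the segment. By symbol alone, since the table has no descriptions, 32 were zinc finger genes (Zfp names and Rsl1 or Rslcan names, the Zfp85 antisense transcript Zfp85os included). Of these, 5 lie before the block of low intervals and 27 lie past it, between 66670274 and 67827000. The block itself overlapped 0 of the 32. It overlapped 9 RefSeq genes, of which 2 are protein coding (LOC115488129 and 2410141K09Rik), 2 are lncRNA genes (Gm26715 and Gm33043) and 5 are pseudogenes, Vmn2r-ps104 among them. Of its 30 intervals, 26 had a pseudogene as the nearest gene in the deposited annotation (86.7%), against 35.2% of the segment and 16.8% of all intervals. By class, 20 of the 30 were annotated to introns, 4 to intergenic DNA, 3 to promoters, 2 to transcription ends and 1 to an exon.

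The promoter windows of 4 genes from RefSeq show how alike the DNA inside and outside the block is. 2410141K09Rik (chr13:66441069-66441368, minus strand) and Gm26715 (chr13:66349156-66349455, plus strand) lie in the block. Gm46428 (chr13:66519416-66519715, plus strand) and Zfp640 (chr13:66680754-66681053, minus strand) lie past its right edge. Each window runs from 250 bases before to 50 bases after the annotated start, 5′ to 3′, and capitals mark CCAAT or its reverse complement ATTGG.
2410141K09Rik: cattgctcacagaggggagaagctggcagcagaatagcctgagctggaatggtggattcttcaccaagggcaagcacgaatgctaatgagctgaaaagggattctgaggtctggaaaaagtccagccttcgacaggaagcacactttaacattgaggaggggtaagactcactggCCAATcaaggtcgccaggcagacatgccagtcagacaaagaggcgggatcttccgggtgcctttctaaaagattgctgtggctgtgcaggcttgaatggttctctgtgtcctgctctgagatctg
Gm46428: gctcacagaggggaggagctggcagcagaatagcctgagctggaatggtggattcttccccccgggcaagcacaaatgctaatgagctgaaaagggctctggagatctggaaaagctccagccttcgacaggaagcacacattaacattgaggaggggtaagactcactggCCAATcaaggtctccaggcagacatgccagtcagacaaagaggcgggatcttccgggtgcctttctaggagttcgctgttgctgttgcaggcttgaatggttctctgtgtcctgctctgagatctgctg
Zfp640: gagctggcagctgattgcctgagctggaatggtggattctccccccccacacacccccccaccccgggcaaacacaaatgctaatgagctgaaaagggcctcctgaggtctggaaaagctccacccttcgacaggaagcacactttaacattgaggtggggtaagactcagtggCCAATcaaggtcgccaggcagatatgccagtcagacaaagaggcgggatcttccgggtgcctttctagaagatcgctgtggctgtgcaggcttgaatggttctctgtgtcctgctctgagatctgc
Gm26715: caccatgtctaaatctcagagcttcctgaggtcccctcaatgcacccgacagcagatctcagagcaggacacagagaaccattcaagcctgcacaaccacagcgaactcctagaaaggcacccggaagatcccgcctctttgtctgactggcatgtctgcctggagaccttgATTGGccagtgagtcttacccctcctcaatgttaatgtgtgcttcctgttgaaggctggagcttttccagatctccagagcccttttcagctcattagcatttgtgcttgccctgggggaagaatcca

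The window of 2410141K09Rik was 91.5% identical to that of Gm46428 and 82.2% identical to that of Zfp640 over a global alignment. The window of Gm26715 aligned best in reverse complement, at 65.7% with 2410141K09Rik and 70.8% with Gm46428. Among the windows of the segment, its closest were those of Gm40985 (96.7% identical) and Gm40989 (88.1%), both outside the block. Among all 32851 promoter windows of the table, 10 were over 80% identical to 2410141K09Rik on either strand, and all 10 lay on chromosome 13 between 65348545 and 66681053. They belong to Gm7762, Gm31714, Gm19428, Gm17353, Gm32476, Gm46425, Gm10324, Gm46428, Gm45966 and Zfp640. The authors' treatment of reads that match several such copies is not given in the sources used here. Counts at these copies, and at Gm26715 and its copies, are therefore uncertain. CCAAT, searched on both strands like the GC box (GGGCGG), the TATA box (TATAAA), the YY1 motif (AAGATGGC) and the E-box (CACGTG), was in 4 of the 4 windows inside the block, in 11 of 29 zinc finger windows of the segment (37.9%) and in 37.4% of all windows. None of the other 4 motifs was in the windows inside the block. GGGCGG was in 5 of the 29 zinc finger windows (17.2%), against 35.7% of all windows. The median number of CpG was 2.5 in the 4 windows of the block, 8 in the zinc finger windows and 7 in all windows. A match describes these letters alone.

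In the WT Firre line the block of low intervals (the low stretch in the plots) ran over 225.4 kb, from chr13:66263176 to 66488580, with 30 intervals. An interval was called low at a log2 difference of -0.5 or less (WT Firre minus WT control), and the block ended where 4 neighbouring tested intervals were not low. Of its 25 tested intervals 22 were low. When 2 such neighbours ended the run, only the first 13 tested intervals remained, over 106.9 kb up to 66370051, and all 13 were low. The pair that split it were an interval at 66374850, in an intron of Vmn2r-ps104 by the deposited annotation, and the Vmn2r-ps104 promoter interval at 66401594, with differences of 0.33 and -0.38. Past that pair, 9 of the 10 remaining intervals were low again. At a bar of -1 the longest run held 3 intervals over 21.3 kb, from 66348726 to 66370051. Without the 90 min library of the WT Firre line, or without that of the WT control line, the rule with 2 neighbours also gave 225.4 kb.

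The left edge lies next to a desert of intervals. The last interval before the block, at chr13:65351556-65352638, had a difference of 0.09, and the Gm7762 promoter interval before it had 0.00. The first 2 inside had -0.87 and -0.67. Between them lay 910.5 kb with no interval, the longest such gap in the segment and matched or passed by 29 of 144850 gaps on the chromosomes. RefSeq places 35 genes wholly in the gap, 19 of them pseudogenes (8 named Vmn2r-ps), 7 protein coding and 7 lncRNA. It also holds 15 RefSeq promoter windows, among them 6 of the 10 that resemble 2410141K09Rik, so the left edge is known only to within the gap. The right edge was narrow. The last 2 tested intervals inside, at 66472081 and 66487757, had differences of -0.19 and -0.65, and the next 2, at 66498902 and 66502283, had -0.03 and 0.18, with 10.3 kb between the sides. In 100 kb bins of all intervals the differences were -0.87, -0.85 and -0.73 from 66200001 to 66500000, with 0.00 in the last bin before the gap and 0.24 in the next bin after it.

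**Figure D1:**
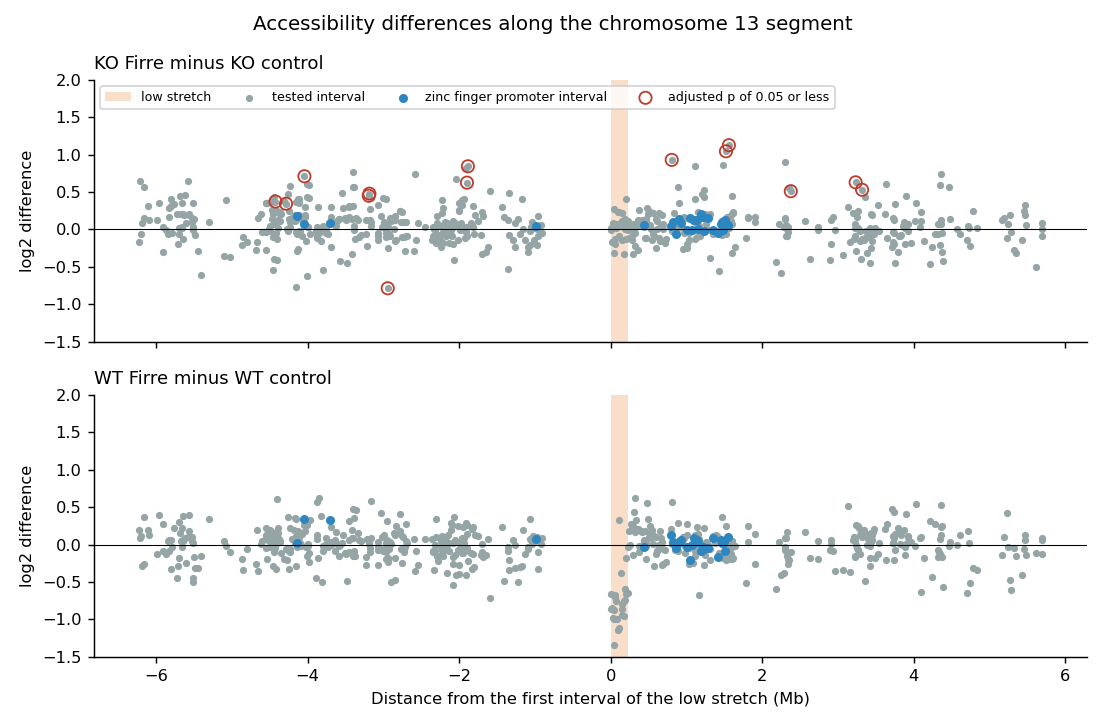
Log2 differences in accessibility of the tested intervals along the segment, for KO Firre minus KO control (top) and WT Firre minus WT control (bottom), against the distance in Mb from the first interval of the low block, which is shaded. Blue points are zinc finger promoter intervals and red rings mark an adjusted p of 0.05 or less in the knockout lines. In the wild type lines 22 of the 25 tested intervals in the shaded block are low by log2 difference, the measure that set the block. Rings use another measure, the adjusted p. The block holds 0 of them, where 0.913% of all tested intervals were called between the knockout lines.

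Summed over its 30 intervals, the block held 83.8, 82.4, 94.8, 83.4 and 96.2 CPM in the WT Firre line at 0, 30, 90, 120 and 150 min. The WT control line held 146.1 to 160.4 CPM, with a median of 156.3. Every WT Firre library was below every WT control library. The means were 88.1 ± 6.77 CPM in the WT Firre line (SD, n = 5) and 154.6 ± 5.50 CPM in the WT control line (SD, n = 6), a ratio of 0.570. The ratio was already 0.574 at 0 min and ran from 0.529 at 120 min to 0.632 at 90 min. Against the rest of the segment in the same library, which does not depend on scaling, the block had 2.03% ± 0.0934 in the WT Firre line and 3.68% ± 0.0925 in the WT control line.

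The levels of the knockout lines overlapped. The block held 144.9, 186.0, 162.1, 189.2, 177.0 and 184.4 CPM in the KO Firre line from 0 to 150 min, and 167.1, 184.5, 159.2, 194.0, 174.6 and 143.6 CPM in the KO control line. The means were 173.9 ± 17.2 CPM in the KO Firre line and 170.5 ± 18.1 CPM in the KO control line (SD, n = 6 each), and same-time ratios ran from 0.867 at 0 min to 1.28 at 150 min. Without the KO control libraries of 30 and 90 min the KO control mean was 161.1 ± 13.3 CPM (n = 4) and the ratio of means was 1.08, against 1.02 with them. As a share of the rest of the segment the block had 3.89% ± 0.245 in the KO Firre line and 3.91% ± 0.203 in the KO control line. The 25 tested intervals on each side of the block gave, with untested ones among them, WT Firre to WT control ratios of 1.04 before it (262.3 against 252.0 CPM) and 1.12 after it (219.5 against 196.3 CPM). After it every WT Firre library lay above every WT control library, although the nearest pair both round to 204.9 CPM.

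**Figure D2:**
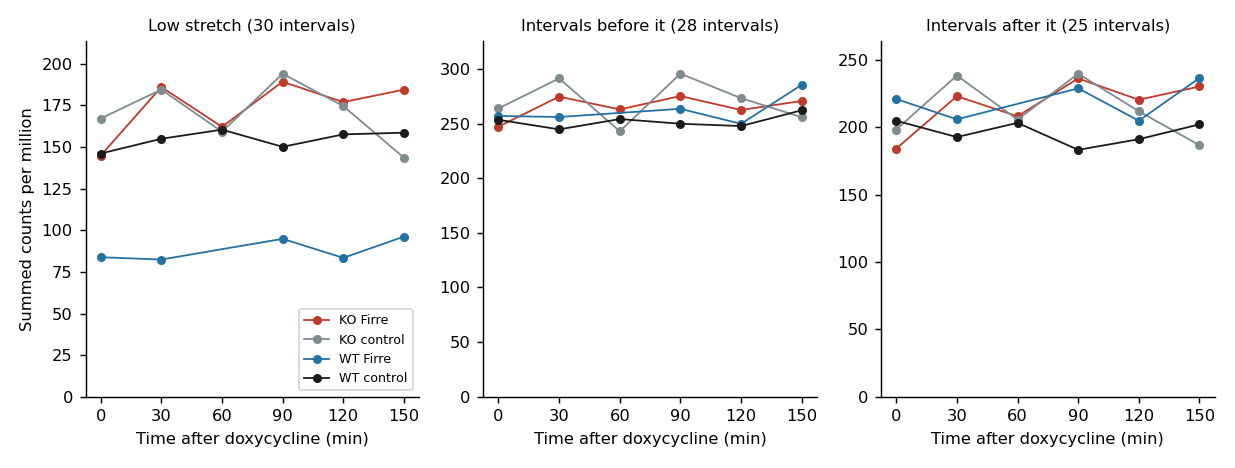
Summed CPM by line and time after doxycycline (min) in the 30 intervals of the low block, 28 intervals before it and 25 after it, 1 point per library and no WT Firre point at 60 min. In the left panel the WT Firre points lie between 82.4 and 96.2 CPM and every other point lies at 143.6 CPM or above, and in the other panels the KO Firre and KO control points overlap, while after the block the WT Firre points lie just above the WT control points.

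By edgeR's quasi-likelihood test with Benjamini-Hochberg adjustment over 129515 tested intervals, 0 of the 25 tested block intervals differed between the KO Firre and KO control lines, where 0.913% of all tested intervals did. At an unadjusted p under 0.05 there were 2, and DESeq2 and limma-voom also called 0. The median log2 difference was 0.02 in the block and 0.00 over all tested intervals, with a median SE of 0.14 in the block. Ratios of means of the single intervals ran from 0.774 to 1.29. Between the KO control and WT control lines, which share the WT control libraries with the difference that chose the block, 0 of 25 passed as well, where 7.97% of all intervals did. There 4 had an unadjusted p under 0.05, DESeq2 and limma-voom called 0, and the median was 0.12 in the block against -0.02 over all.

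In the wild type lines, 13 of the 25 block intervals and 14 of the 636 tested intervals of the segment had an adjusted p of 0.05 or less, all lower in the WT Firre line, where 0.0208% of all tested intervals did (0.0818% in either direction, 0.061% higher). This is the contrast behind the choice of the segment and the counts are given as a description. The 14th lies at chr13:67433652 in intron 3 of 4 of Zfp874a. The median log2 difference was -0.80 in the block and 0.02 in the other 611 tested intervals of the segment. No library of the WT Firre line reached the lowest WT control library at 14 of the 25, and at 16 in the whole segment, a pattern found at 0.359% of all tested intervals. Searched the same way with 2 neighbours, no other chromosome held a run with more than 3 low intervals in the WT lines. That search used the differences behind the choice of the segment, so it too is a description and lends no support. In the knockout lines the longest low run had 4. Between the KO control and WT control lines it was 20 intervals at the deleted Firre gene on X.

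Among the single intervals of the block, the one with the most counts, at chr13:66311475-66312505 in an intron with Gm18260 nearest, averaged 7.12 ± 1.28 CPM in the WT Firre line (n = 5) and 14.2 ± 1.15 CPM in the WT control line (n = 6), and 17.2 ± 2.75 CPM in the KO Firre line and 16.6 ± 4.41 CPM in the KO control line (n = 6 each). The lowest ratio of WT Firre to WT control, 0.352, was at 66313878. The WT Firre line had 0.468 ± 0.256 CPM there and the WT control line 1.33 ± 0.342 CPM. In the WT Firre line that is close to 0.399 CPM, the level of 3 counts at its median library size. The ratio was below 1 at 24 of the 25 and its median was 0.569. The exception was the Vmn2r-ps104 intron interval at 66374850, with 2.06 ± 0.531 CPM in the WT Firre line and 1.68 ± 0.606 CPM in the WT control line.

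The promoter interval of 2410141K09Rik, at chr13:66440864-66441695 and covering the sequence printed above, had 3.80, 5.02, 5.62, 6.16 and 4.99 CPM in the WT Firre line. The WT control line had 8.05, 9.49, 9.59, 9.11, 10.4 and 12 CPM. Every WT Firre library was lower than every WT control library, with a log2 difference of -0.96. In the KO Firre line it had 9.36, 11.8, 8.54, 14.2, 10.2 and 14.4 CPM and in the KO control line 10.8, 13.6, 10.9, 13.3, 10.4 and 7.42 CPM, which overlap (log2 difference 0.08, SE 0.11, adjusted p = 0.835).

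The copies of the 2410141K09Rik window past the right edge were not low. The interval over the Gm46428 promoter, which carries the sequence 91.5% identical to that of 2410141K09Rik, averaged 10.4 ± 0.504 CPM in the WT Firre line and 10.3 ± 1.26 CPM in the WT control line, a ratio of 1.00. The interval over the RefSeq Zfp640 promoter window, assigned to Gm40988 in the deposited annotation, averaged 10.4 ± 1.81 CPM in the WT Firre line and 9.16 ± 1.34 CPM in the WT control line. The interval over Gm45966, at chr13:66588822-66590154, averaged 6.12 ± 0.848 CPM in the WT Firre line and 4.08 ± 1.12 CPM in the WT control line, the largest log2 difference above 0 among the copies (0.62). On the left side of the gap the Gm7762 promoter interval had a ratio of 1.01.

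Of the other promoter intervals in the block, that of Gm48245 at 66279748 averaged 1.47 ± 0.366 CPM in the WT Firre line and 2.75 ± 1.01 CPM in the WT control line, and its libraries overlapped. That of Vmn2r-ps104 at 66401594 averaged 4.26 ± 0.953 CPM in the WT Firre line and 5.74 ± 0.660 CPM in the WT control line, again with overlap. Its name is from the deposited annotation. RefSeq places Vmn2r-ps104 elsewhere, at 66351314 to 66355797, and the start of this interval within Gm26715 (66349406 to 66412059). The interval at 66348726-66349855 covers the Gm26715 window, so its counts share the uncertainty over copies. It had 4.46, 4.89, 6.28, 4.85 and 5.88 CPM in the WT Firre line, against 8.81 to 13.4 CPM in the WT control line, which does not overlap. In the KO Firre line it averaged 12 ± 3 CPM and in the KO control line 11.6 ± 1.70 CPM.

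**Figure D3:**
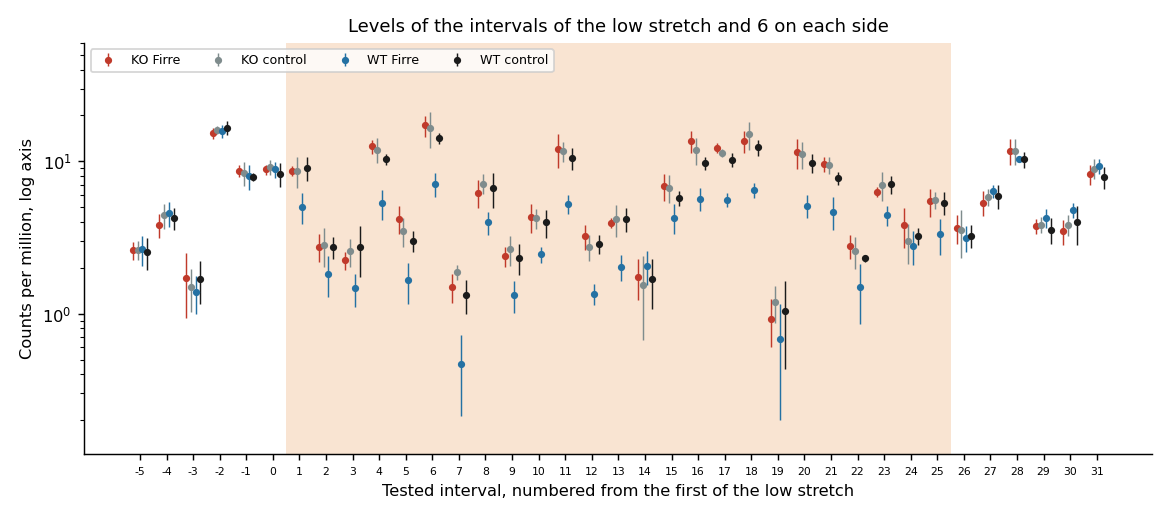
Mean CPM (log axis) of each of the 25 tested intervals of the block, shaded, and of 6 on each side, in order of position, by line, with bars of 1 SD over 6 libraries (5 for WT Firre). The WT Firre points lie below the WT control points at 24 of the 25 shaded intervals.

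No difference between transgenic and control lines in their change after doxycycline was called by edgeR, in the segment or over all 129515 tested intervals. The 0 calls are therefore not particular to the segment. A change with time shared by transgenic and control lines was not tested. The mean Firre response is the change since 0 min in the transgenic lines minus that in the controls, over both backgrounds. It rests on single libraries at 0 min. For this response edgeR called 0 of 636 intervals of the segment, with a median SE of 0.32. At an unadjusted p under 0.05 there were 32, where 3.77% of all intervals had one, and DESeq2 and limma-voom called 0. The slopes per hour of the Firre line minus its control gave 0 calls in either background, with 38 intervals at an unadjusted p under 0.05 in the knockout background (5.99% of all intervals) and 25 in the wild type background (4.01% of all). DESeq2 and limma-voom called 0 there too. In the block the median slope difference was 0.14 log2 per hour in the knockout background and 0.05 in the wild type background, with median SEs of 0.16 and 0.19.

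None of the zinc finger promoters below was called different between the transgenic lines and their controls. By the deposited annotation, 26 of the 32 zinc finger genes had a tested promoter interval, 28 intervals in all, within 1000 bp of the annotated start or in its promoter annotation. Between the KO Firre and KO control lines 0 of 28 were called by edgeR, DESeq2 or limma-voom, 1 had an unadjusted p under 0.05, and the median log2 difference was 0.08, against 0.00 over all tested intervals. Log2 differences ran from -0.05 to 0.21. Their summed level was 422.1 ± 23.1 CPM in the KO Firre line and 404.9 ± 35.8 CPM in the KO control line, and 392.0 ± 18.2 CPM in the WT Firre line and 384.2 ± 11.2 CPM in the WT control line. In the wild type lines the median was 0.03 with 0 calls by any of the tools and 2 intervals at an unadjusted p under 0.05, as had 7.55% of all tested intervals.

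At the 28 zinc finger promoter intervals, log2 differences ran from -0.20 to 0.34 for WT Firre minus WT control. For KO control minus WT control they ran from -0.27 to 0.28 (levels of different genes are not per length and are not compared). The Zfp459 promoter interval averaged 31.1 ± 4.11, 31.3 ± 2.95, 29.2 ± 3.14 and 28.4 ± 1.83 CPM in the KO Firre, KO control, WT Firre and WT control lines. Zfp369, which lies before the gap, averaged 30.9 ± 3.45, 30.2 ± 5.42, 26.4 ± 1.41 and 24.8 ± 2.14 CPM. The second Zfp808 interval averaged 6.17 ± 0.673, 5.94 ± 0.443, 6.06 ± 0.792 and 4.83 ± 0.944 CPM. Rsl1, a KRAB zinc finger gene known for restraining sex-limited genes of mouse liver, averaged 14.4 ± 1.08, 13.3 ± 2.16, 12.9 ± 1.20 and 12.3 ± 1.81 CPM. Zfp369 was the one of the 28 called between the KO control and WT control lines (log2 difference 0.27, adjusted p = 0.047), and DESeq2, limma-voom and the fit without the KO control libraries of 30 and 90 min called none of the 28. The interval at 64152226, which the deposited annotation gives to Gm47513 and which is therefore not among the 28, holds both RefSeq promoter windows of Zfp367. It was called in the same comparison, with 72.4 ± 9.97 CPM in the KO control line and 54.5 ± 3.38 CPM in the WT control line (log2 difference 0.40, adjusted p = 0.00107). That call was lost with loess offsets and without the KO control libraries of 30 and 90 min, and its direction turned with the promoter share as covariate (-0.08). Zinc finger promoters elsewhere in the genome gave 69 higher and 1 lower of 369 (19%), near the 17.8% of all tested promoters.

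**Figure D4:**
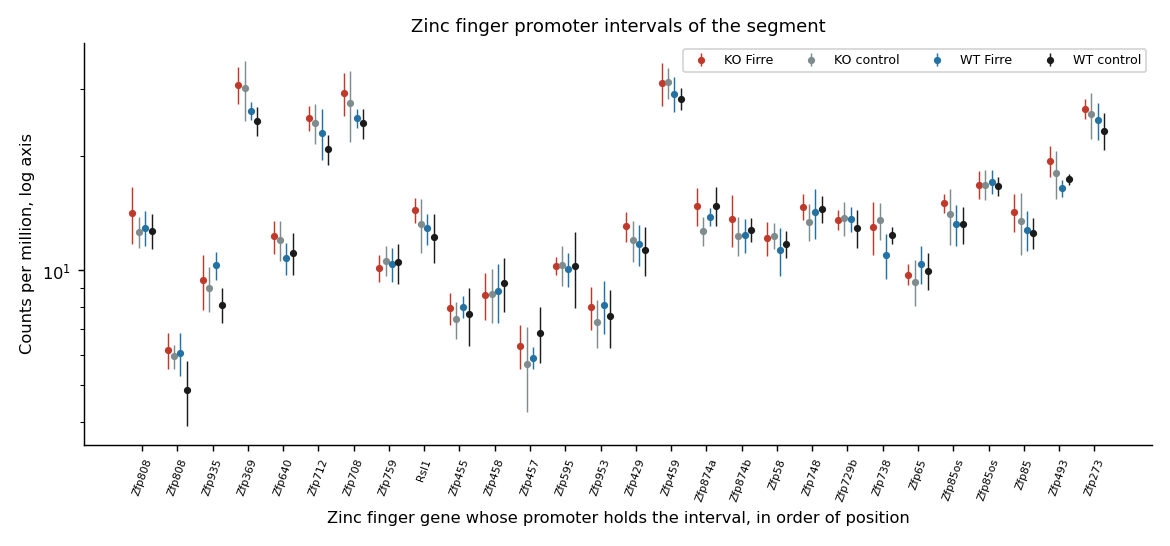
Mean CPM (log axis) of the 28 tested promoter intervals of zinc finger genes in the segment, in order of position, by line, with bars of 1 SD over 6 libraries (5 for WT Firre). Zfp459 has 31.1 CPM in KO Firre and 31.3 CPM in KO control. Over the 28, log2 differences run from -0.05 to 0.21 between the knockout lines and from -0.20 to 0.34 between the wild type lines.

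Outside the block, some intervals differed between the KO Firre and KO control lines. Of 636 tested intervals 13 were higher (2.2% called in either direction, against 0.913% of all and 0.663% of the rest of chromosome 13) and 1 was lower, by edgeR's test. The percentages called higher and lower over all tested intervals were 0.569 and 0.344. At 8 of the 14 no library of one line overlapped the other, and 12 of the 636 showed such separation, where 0.943% of all tested intervals did. The count was 3 by DESeq2, 9 by limma-voom, 9 with no filter on low counts and 5 without the KO control libraries of 30 and 90 min. It was 6 without the 30 or the 120 min library of the KO Firre line, 7 without its 150 min and 8 without its 90 min library. Without the KO control library of 0, 30 or 120 min it was 8, and without that of 90 min it was 9. Over all tested intervals the calls fell as well, from 737 higher and 446 lower. They were 95 and 58 with DESeq2, 496 and 290 with limma-voom, and 590 and 413 with no filter. Without the KO control libraries of 30 and 90 min they were 355 and 213. Leaving out each single library named here also lowered them.

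Of the 14, 3 passed under all alternatives run, and were chosen for mention by that count after their values were seen. The first lies at chr13:67070392-67071421, a transcription end annotated between Zfp712 and Zfp708 (nearest start Zfp712, at a signed distance of -9736 bp). It had 4.40, 4.38, 5.78, 4.61, 5.04 and 6.29 CPM in the KO Firre line and 2.54, 2.57, 3.27, 2.01, 3.52 and 2.34 CPM in the KO control line, with no overlap (log2 difference 0.93, SE 0.16, adjusted p = 0.000265). The wild type lines lay closer to the KO Firre line, at 4.14 ± 0.877 CPM in the WT Firre line and 4.32 ± 1.40 CPM in the WT control line. The KO control line was lower than the WT control line there too (log2 difference -0.69, adjusted p = 0.00422), a comparison that uses the same KO control libraries. That second call was lost without the 120 min WT control library and with the promoter share as covariate. The promoter intervals of Zfp712 and Zfp708 on either side were not called, with log2 differences of 0.05 and 0.10.

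The second lies at a distance of -9739 bp from the start of Ctsl, the lysosomal protease cathepsin L, at chr13:64379686-64380404. It had 5.25, 3.99, 3.77, 5.76, 4.16 and 3.70 CPM in the KO Firre line and 1.07, 1.47, 3.27, 3.02, 3.08 and 2.44 CPM in the KO control line. The lines did not overlap (log2 difference 0.84, SE 0.18, adjusted p = 0.00376). The WT Firre line averaged 3.64 ± 0.497 CPM and the WT control line 4.28 ± 0.461 CPM, and the KO control line was lower than the WT control line by a log2 difference of -0.80 (adjusted p = 0.00127), a call lost with the promoter share as covariate. Of the 2 annotated Ctsl promoter intervals, the one at 64367442 was called higher, at 6.99 ± 0.946 CPM in the KO Firre line and 4.52 ± 0.780 CPM in the KO control line (log2 difference 0.63, adjusted p = 0.00513), a call lost with DESeq2 and without the 150 min KO Firre library. The other, at 64369727-64370882 over the RefSeq start of Ctsl, was not called, with 23.8 ± 2.65 CPM in the KO Firre line and 23.4 ± 2.26 CPM in the KO control line (log2 difference 0.04, adjusted p = 0.916). Of the 11 genes of the cathepsin and trophoblast protein cluster that were looked for, Ctsl alone had a promoter interval.

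The third lies in intron 20 of 24 of Adcy2, an adenylyl cyclase gene, at chr13:68642403-68644350. It averaged 14.3 ± 1.78 CPM in the KO Firre line and 10.1 ± 1.45 CPM in the KO control line without overlap (log2 difference 0.51, adjusted p = 0.00167). The wild type lines averaged 10.7 ± 1.48 CPM (WT Firre) and 11.4 ± 1.13 CPM (WT control), close to the KO control line. So the 3 intervals differed in which knockout line stood nearer to the wild type lines.

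Further higher intervals lay in zinc finger genes, and the calls at all 3 were lost without the KO control libraries of 30 and 90 min and with DESeq2. In exon 4 of 4 of the Zfp273 gene, at chr13:67825180-67825783, the KO Firre line averaged 2.80 ± 0.281 CPM and the KO control line 1.25 ± 0.552 CPM (log2 difference 1.13, adjusted p = 0.0036), and the WT Firre line averaged 2.09 ± 0.654 CPM and the WT control line 2.33 ± 0.763 CPM. At the end of Zfp493, at 67786543, the averages were 2.08 ± 0.546 CPM in the KO Firre line and 0.982 ± 0.346 CPM in the KO control line (log2 difference 1.04, adjusted p = 0.0253). An intronic interval of Zfp808 at 62221872 had 3.56 ± 0.689 CPM in the KO Firre line and 2.16 ± 0.390 CPM in the KO control line (log2 difference 0.71, adjusted p = 0.0442). The likeness of these 3 intervals to other zinc finger genes was not measured, so the effect of reads that match several copies is unknown. The promoter intervals of Zfp273 and Zfp493 had log2 differences of 0.06 and 0.12 and were not called.

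The other higher intervals were at the end of Tent4a, a noncanonical poly(A) polymerase gene (0.63), in an intron of Srd5a1, a steroid 5α-reductase gene (0.53), in intron 1 of 7 of Aopep, an aminopeptidase gene (0.45 and 0.48), and at 61839455 and 61978698 (0.37 and 0.34). None of these 6 calls held with DESeq2 or without the KO control libraries of 30 and 90 min. The one lower interval lies in an exon of Fancc, a Fanconi anaemia gene, at chr13:63321521-63322262. It averaged 2.24 ± 0.324 CPM in the KO Firre line and 3.80 ± 0.893 CPM in the KO control line, without overlap (log2 difference -0.79, adjusted p = 0.0129). That call was lost with DESeq2, without the 120 or 150 min KO Firre library and without the 120 min KO control library.

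**Figure D5:**
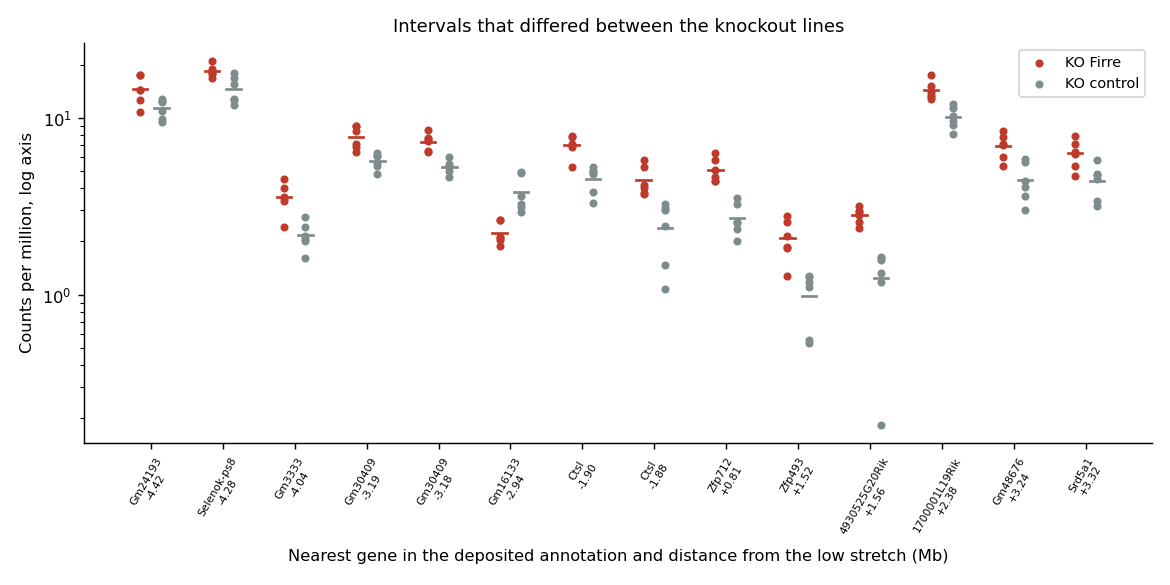
CPM (log axis) per library of the 14 called intervals in the KO Firre line (red, left of each pair) and KO control line (grey, right), with bars at the means. Labels give the nearest gene in the deposited annotation and the distance in Mb from the low block. The red points lie above the grey ones on average at 13 intervals and below them at 1 (Gm16133, in Fancc).

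Between the KO control and WT control lines, 12 intervals of the segment were higher and 19 lower of 636 (4.87%, against 7.97% of all tested intervals, of which 5.5% higher and 2.47% lower), outside the block. Promoters were 8 of those higher and 4 of those lower, which is 9.6% of the 125 tested promoter intervals of the segment, against 17.8% of all tested promoters. The share of a library's counts in promoters was 42.1% ± 0.964 in the KO control line and 39.0% ± 0.592 in the WT control line. The lines did not overlap (41.0% to 43.1% against 38.1% to 39.7%), so share and line cannot be told apart. The part of that share in the result was not tested beyond a fit with it as a covariate. That fit left 31 higher and 25 lower calls over all 129515 tested intervals, and 0 calls in the segment. The counts were 14 by DESeq2, 7 without the KO control libraries of 30 and 90 min, 17 without the 90 min library of either line, 16 without the 120 min and 70 without the 150 min KO control library. Scaling to total counts gave 7 higher and 41 lower, and loess offsets 3 higher and 15 lower. Over all tested intervals the calls moved as well, from 7128 higher and 3196 lower. They were 3855 and 7224 with total counts, 3529 and 2768 with loess offsets, and 5455 and 619 with DESeq2. Without the KO control libraries of 30 and 90 min they were 1643 and 492, and without that of 150 min 11051 and 6145.

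Among the higher promoters were those of Nsun2, an RNA cytosine methyltransferase gene (70.8 ± 9.05 CPM in the KO control line and 51.7 ± 4.92 CPM in the WT control line, log2 difference 0.44, adjusted p = 0.000158), and of Fancc (56.3 ± 9.66 CPM in the KO control line and 43.3 ± 4.22 CPM in the WT control line, log2 difference 0.36, adjusted p = 0.00308), the Fancc difference becoming -0.08 once the promoter share was a covariate. With the covariate and with loess offsets neither call held, and without the KO control libraries of 30 and 90 min that of Nsun2 held and that of Fancc did not. The KO Firre line averaged 63.7 ± 7.56 CPM at Nsun2 and 50.4 ± 6.39 CPM at Fancc. The Nsun2 interval also holds the RefSeq promoter window of Srd5a1. By the deposited annotation Srd5a1 had no promoter interval, so it is not among the metabolic promoters below. Of the lists looked for beside the zinc fingers, promoters of genes for gene expression and the cell cycle gave 3 higher of 7 and those of signalling and developmental genes 1 higher of 5. Hedgehog and DNA repair promoters gave 1 higher of 4, and metabolic promoters 1 lower of 9. With 17.8% of all tested promoters called, counts of this size are read as no more than a description. In the knockout pair the smallest adjusted p among the 25 intervals of these 4 lists was 0.121.

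The borders of the segment were set by position. The 3 intervals just inside the low border had WT Firre minus WT control log2 differences of 0.20, 0.09 and 0.11, and those just outside had -0.32 and -0.20, with the third untested. Inside the high border they were -0.12, 0.06 and 0.09, and outside -0.26, -0.18 and -0.29, all with Irx1 as the nearest gene.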

How the data were processed

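The deposited values are raw counts (integers) of reads per consensus interval and library as the authors made them, with no normalization. MACS2 2.2.7.1, featureCounts and the build mm10 are named, with no role, per the submitters' processing notes. Alignment, duplicates, multiple matches and any transposase shift: not given in the sources used here. Counts were tested with edgeR 4.0.16 (glmQLFit, robust, TMM, filterByExpr with a minimum of 10 counts), with line and time as terms and all 23 libraries sharing 1 estimate of the spread. Of 704 segment intervals 636 passed the filter and 68 did not. Benjamini-Hochberg adjustment ran over all 129515 tested intervals, with calls at 0.05 or less. Standard errors come from the F statistic. Fits were tested on simulated data. DESeq2 1.42.0 and limma 3.58.1 (voom) were alternatives, with other scalings, filters, terms and left-out libraries. At the median library size, 3 counts (the limit that a count of 0 allows, for counting error only) equal 0.391 CPM.

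The members, lists and rules were chosen with earlier results of these data known. Named intervals were the promoter intervals of the low run with its strongest others, those at its edges and at the segment's borders, up to 6 called intervals per contrast and direction with the largest change, and promoters of the gene lists. The run rule broke at 2 neighbours, and levels are given for its alternative of 4, which spans the whole block and was taken up after its values were seen. Zinc finger genes were recognised by symbol. Promoter sequences are from RefSeq (GRCm38.p6), aligned globally with Biopython 1.88.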

Additional observations from a re-analysis of the deposited data

Results flagged for a closer look

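Among 92 groups of libraries at named intervals, 2 held 1 library far from the others, and chance alone marks about 1 group in 20. At the exon of Zfp273 (chr13:67825180-67825783) the KO control library of 30 min had 0.184 CPM, below the limit of 3 counts in a library of median size, and the other 5 KO control libraries had 1.17 to 1.63 CPM. At the Adcy2 intron interval the WT control library of 120 min had 13.6 CPM, and the other 5 WT control libraries had 10.3 to 11.4 CPM. The Adcy2 difference between the KO Firre and KO control lines kept an adjusted p of 0.05 or less under all 33 alternatives run.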

How the results depend on the processing

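The calls between the KO Firre and KO control lines (14) numbered 9 with no filter, 3 with DESeq2, 9 with limma-voom, 5 without the KO control libraries of 30 and 90 min, and 6 to 14 when single libraries were left out. Those between the KO control and WT control lines (31) numbered 48 with total counts, 18 with loess offsets and 14 with DESeq2. They numbered 0 with the promoter share as a covariate (45 at an unadjusted p under 0.05). Without the 30 and 90 min libraries they were 7, and 16 to 70 when single libraries were left out. For both comparisons the counts over all tested intervals moved too, as given above for some settings. With total counts the medians of KO control minus WT control were -0.13 in the segment, 0.012 in the 106.9 kb run and 0.032 in the block, and with the promoter share -0.060, -0.11 and -0.046. Left-out libraries gave 0.023 to 0.15 in the run and 0.064 to 0.16 in the block. For WT Firre minus WT control the segment median was -0.041 with total counts and -0.025 with the promoter share. The run median was -0.94 with a stricter filter, -1.11 with the promoter share and -1.05 to -0.84 with libraries left out, and the block median was -0.87, -0.86 and -0.87 to -0.76. The run was 225.4 kb at a bar of -0.25 or broken by 4, 21.3 kb at -1, 300.0 kb in bins and 106.9 to 225.4 kb with libraries left out. With the promoter share, KO control minus WT control reversed at the promoters of Fancc (-0.083), Gm47513 (-0.078), 1700015C15Rik (-0.015), Tent4a (-0.086, and -0.000378 with loess offsets) and D030007L05Rik (-0.111). The cause was not tested. The calls in the wild type lines (14) numbered 12 to 18 with libraries left out. The KO Firre minus KO control median, 0.02 in both, ran from -0.055 to 0.083 in the block and from -0.073 to 0.048 in the run with libraries left out, so its sign rests on single libraries. Libraries of the same time were matched by the time term, which serves as the block, since the labels give no replicate numbers. Without it the calls numbered 12 between the knockout lines and 29 between the controls. In a library of median size, an interval with a true level under 0.391 CPM may give a count of 0. Each comparison is also limited by 1 line per genotype.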
